A study of Mus musculus with 16 samples.

Results

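Livers of Ncoa5+/-Tip30+/- mice, which carry 1 deleted allele of each gene, were compared with livers of wild-type mice. The comparison took the 8 libraries labelled with these genotypes, 4 mice in each group, out of 16 in the series, and covered the 15373 of 30199 genes whose mean over the 8 libraries was at least 10 normalized counts. The other 8 libraries came from 4 Ncoa5+/- and 4 Tip30+/- mice and served to place the double heterozygote beside each single one. All mice were female, 5 months old and fed standard rodent chow, and 1 library of polyadenylated RNA was made per mouse from a piece of frozen liver. The labels give whole-animal genotypes, and name neither a strain nor a Cre driver. Values are normalized counts, that is read counts divided by a size factor per library, and the p-values measure the spread between single mice.

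Ncoa5 is a coregulator that binds nuclear receptors, among them the oestrogen receptor, and Tip30, the common name of Htatip2, is a short-chain dehydrogenase studied as a suppressor of liver tumours. p53, encoded by Trp53, is a transcription factor held at a low level by the ubiquitin ligase Mdm2; when it is stabilized it binds paired half-sites in DNA and switches on genes of cell cycle arrest, apoptosis and repair, and Mdm2 itself. Hepatocytes also turn cholesterol into bile acids through a chain of cytochrome P450 enzymes under the control of nuclear receptors.

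Depth lay between 24740706 and 31987259 reads in genes per double heterozygous library and between 26058724 and 37939978 per wild-type library. Hepatocyte markers were abundant in every library, with 1290000 to 2016000 normalized counts of albumin (Alb) in double heterozygotes and 1459000 to 2285000 in wild type, and none of the 12 markers on that list was called. Their median log2 change was -0.31, against -0.01 over all genes, and 4 of the 12 were positive. Summed, they had 2340000 to 2990000 in double heterozygotes and 2520000 to 3710000 in wild type. Wild-type livers 1 and 2 stood apart from the others in Zhx2, a transcriptional repressor of liver genes, as did Ncoa5+/- livers 1 and 4. Zhx2 had 420, 167, 227 and 242 normalized counts in double heterozygous livers 1 to 4, against 19.4, 26.3, 438 and 204 in wild-type livers 1 to 4. The wild-type pair low in Zhx2 is also the pair with mouse tags under 4300, so within wild type the low Zhx2 and the mouse tag cannot be told apart. Counts and calls are therefore also given without the 4 livers low in Zhx2, which leaves 2 wild-type mice. With fewer mice a call can be lost there although the change is no smaller.

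The Tip30 label was checked on its gene. Htatip2 (ENSMUSG00000039745, GRCm38 chromosome 7, 49759115 to 49773975) had 837, 1088, 991 and 991 normalized counts in double heterozygotes, against 2196, 2209, 1835 and 1994 in wild type. Every double heterozygote lay below every wild-type liver, and the level fell to 47.4% of wild type (log2 change -1.08 ± 0.13 SE, adjusted p = 0.000226 by limma, 2-sided exact permutation p = 0.0286, the smallest that 4 mice against 4 allow). Ncoa5 (ENSMUSG00000039804, chromosome 2, 165000357 to 165034867) had 391, 369, 382 and 424 in double heterozygotes and 409, 480, 434 and 380 in wild type. These groups overlapped, at 92.1% of wild type (log2 -0.12 ± 0.10, adjusted p = 0.527, 2-sided exact permutation p = 0.257). The Ncoa5 reads thus do not check the Ncoa5 label, and the sources used here name no deleted exon.

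In double heterozygous livers 412 genes were called at an adjusted p below 0.05, which is 2.68% of those tested, and 354 of them are protein-coding. Of these 215 rose (1.40% of genes tested) and 197 fell (1.28%). The rises were the larger changes: 146 genes (0.950%) rose and 24 (0.156%) fell by more than 2-fold, and the median log2 change was 1.23 among genes that rose and -0.57 among genes that fell. In 387 of the called genes (2.52% of those tested) the groups did not overlap, against 1655 genes (10.8%) of all those tested. Of the 14 largest rises named here 7 were on the lists of p53 targets, and Cyp4a14, Cyp8b1, Cyp7b1 and Cyp39a1, P450 enzymes of fatty acid, oxysterol and bile acid metabolism, were among the 14 largest falls. Without the 4 livers low in Zhx2, 103 genes rose and 17 fell. Of these, 73 and 9 were among the genes called above, and all 412 kept their direction. The median log2 change of the 215 was then 1.28 and that of the 197 was -0.52. Leaving out double heterozygote 2 left 66 rises and 23 falls and leaving out wild-type liver 1 left 87 and 24.

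**Figure D1:**
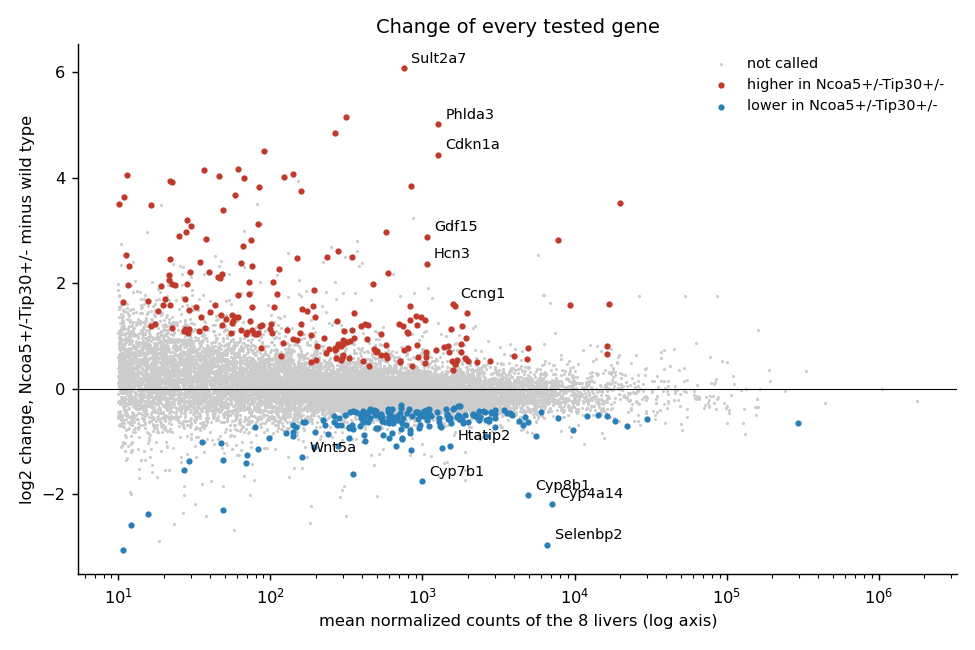
Change of each of the 15373 tested genes. The horizontal axis gives the mean normalized counts of the 8 livers on a log axis and the vertical axis the log2 change, Ncoa5+/-Tip30+/- minus wild type; red points are the 215 genes called higher in double heterozygotes, blue points the 197 called lower and grey points the rest. Rises reach a log2 change of 6.08 (Sult2a7), while the largest fall among the labelled genes is -2.96 (Selenbp2).

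Among p53 targets of cell cycle arrest and feedback, 7 of 16 tested genes rose, against 1.40% of all genes, and none fell. The median log2 change of the 16 was 0.83, against -0.01 over all genes. Cdkn1a, which encodes the cyclin-dependent kinase inhibitor p21 (ENSMUSG00000023067, chromosome 17, 29090976 to 29100727), had 1233, 2666, 4893 and 1006 normalized counts in double heterozygotes, against 117, 130, 62.7 and 73.1 in wild type. The lowest double heterozygote thus lay far above the highest wild-type liver, a 21.7-fold rise on the scale of log2(value + 1), which is the scale of every fold here (log2 4.44 ± 0.43, adjusted p = 0.000124). Mdm2, the ubiquitin ligase that returns p53 to a low level, had 1044, 1822, 1697 and 1068 in double heterozygotes, against 494, 472, 638 and 551 in wild type. It rose 2.55-fold, again with no overlap (log2 1.35 ± 0.18, adjusted p = 0.000665). Ccng1, a cyclin that acts on Mdm2 through a phosphatase, rose 3.05-fold, with 1668 to 3189 in double heterozygotes and 609 to 861 in wild type. The kinase gene Plk2 rose 4.58-fold, the cell cycle gene Gtse1 5.03-fold and the RNA-binding protein gene Zmat3 2.34-fold. Sesn2, a sestrin that restrains mTORC1, rose 2.06-fold (adjusted p = 0.0338), with 1130 normalized counts in double heterozygote 3 and 550 to 631 in the other 3. Its call was lost without the livers low in Zhx2 (adjusted p = 0.144). Among the members not called were Btg2 (log2 0.94, adjusted p = 0.08), Mdm4 (0.44, 0.063) and Sesn1 (-0.52, 0.0672). Trp53 itself was not called either, with 530 to 641 normalized counts in double heterozygotes and 589 to 625 in wild type (log2 -0.04 ± 0.09, adjusted p = 0.853).

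The promoters of the called p53 targets were searched because these genes moved together. The p53 half-site consensus was looked for in the 250 bases before each RefSeq start (GRCm38.p6), where 17 of the 20 called targets have an entry. The consensus reads the same on both strands. Each gene was counted once, and held the consensus if it lay before any of its starts. Of the 17, 7 held it (41.2%), against 780 of 10664 tested genes with an entry (7.3%). It was held by 2216 of all 27025 genes with an entry (8.2%) and by 21 of 143 genes called up with an entry (14.7%). The 143 include the 17. The lists hold genes already known as p53 targets, so the larger share among them is a description and not a test. Listed targets that were not called were not counted apart. A pair of half-sites with a spacer of at most 13 bases was found in Cdkn1a alone of the 17, against 18 of all 27025 genes with an entry (0.07%). The windows shown are those of the arrest and feedback genes and of Bax, with the half-site in capitals, each written 5′ to 3′ on the strand of its gene. They lie at chr17:29090876-29090967 (plus strand) for Cdkn1a, chr10:117710905-117710974 (minus) for Mdm2, chr11:40755432-40755501 (minus) for Ccng1 and chr7:45467060-45467129 (minus) for Bax.
Cdkn1a: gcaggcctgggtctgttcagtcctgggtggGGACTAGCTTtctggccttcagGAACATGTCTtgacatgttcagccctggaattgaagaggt
Mdm2: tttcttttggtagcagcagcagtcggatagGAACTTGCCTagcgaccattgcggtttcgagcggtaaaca
Ccng1: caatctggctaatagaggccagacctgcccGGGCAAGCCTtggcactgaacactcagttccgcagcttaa
Bax: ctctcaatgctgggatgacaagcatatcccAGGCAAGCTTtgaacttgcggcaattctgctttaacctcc
Only exact matches to the consensus were counted and marked. The stretch right after the second Cdkn1a half-site differs from the consensus at its first base and stays in lower case. A match is a description of letters and does not show that p53 was bound there, and the other 10 genes may hold half-sites outside this window.

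Of 16 p53 targets of apoptosis and death receptors 7 rose and none fell, with a median log2 change of 0.57. Phlda3, a repressor of Akt signalling (ENSMUSG00000041801, chromosome 1), had 1533, 3390, 4114 and 880 normalized counts in double heterozygotes, against 67.5, 115, 48.7 and 43.0 in wild type. It rose 32.3-fold (log2 5.01 ± 0.47, adjusted p = 8.85e-05), and its lowest double heterozygote lay far above its highest wild-type liver. Eda2r, a receptor of ectodysplasin on the X chromosome, had 58.4, 255, 241 and 148 in double heterozygotes, against 10.2, 6.31, 1.87 and 7.74 in wild type. Its rise was 22.7-fold (log2 4.50 ± 0.46, adjusted p = 7.5e-05). Tnfrsf10b, the TRAIL death receptor, rose 8.68-fold, with 73.2 to 227 normalized counts in double heterozygotes and 6.55 to 27.6 in wild type. Bax, which opens the outer mitochondrial membrane, had 1035, 1709, 1498 and 1014 in double heterozygotes, against 421, 514, 577 and 486 in wild type, a rise of 2.58-fold without overlap (adjusted p = 0.000185). Aen, an exonuclease of apoptosis, rose 2.71-fold and Trp53inp1, a stress-induced p53 cofactor, 2.96-fold. Apaf1, the core of the apoptosome, rose 1.54-fold (adjusted p = 0.0467), and its call was lost in all 8 fits that left out 1 mouse. The other members were not called. Among them Bbc3 was at log2 -0.65 (adjusted p = 0.635), Pmaip1 at 0.64 (0.426), Fas at 0.22 (0.362) and Bid at -0.53 (0.0695). Of all 16, 11 had a log2 change above 0.

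Of 15 other p53 targets 6 rose and none fell, with a median log2 change of 0.38. Gdf15, a circulating stress cytokine, had 1552, 2407, 2852 and 742 normalized counts in double heterozygotes, against 143, 342, 351 and 156 in wild type (7.34-fold, log2 2.88 ± 0.42, adjusted p = 0.00344). The double heterozygotes all lay above wild type. Ddit4l, an inhibitor of mTORC1 signalling, rose 16.2-fold, with 87.7 to 349 in double heterozygotes and 9.46 to 14.04 in wild type. Polk, a DNA polymerase that copies past lesions, rose 2.79-fold, Ddias, named for suppressing apoptosis after DNA damage, 7.02-fold and the microsomal epoxide hydrolase gene Ephx1 1.76-fold (adjusted p = 0.029). The spindle protein gene Psrc1 had 14.3 to 95.3 normalized counts in double heterozygotes and 0 to 3.75 in wild type, so its 15.4-fold rise (adjusted p = 0.0187) is uncertain in size. DNA repair genes did not share these rises: of 23 sensors and repair enzymes none rose and 1 fell, Parp1, the poly(ADP-ribose) polymerase of strand breaks (log2 -0.45 ± 0.10, adjusted p = 0.0249), a call that 4 of 8 fits without 1 mouse kept and that was lost without the livers low in Zhx2 (0.182). The ribosomal protein gene Rps27l rose 1.71-fold (adjusted p = 0.0131, and 0.119 without those livers), the single call among 25 cytosolic ribosomal protein genes.

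The double heterozygotes differed among themselves in these genes. All 20 called p53 targets were highest in liver 2 (4 genes) or liver 3 (16 genes) and lowest in liver 1 (7 genes) or liver 4 (13 genes). The median ratio of the highest to the lowest liver was 1.98 within double heterozygotes and 1.66 within wild type. In all 20 genes the groups did not overlap, as in 387 of all 412 called genes, so this is not particular to p53 targets. Of the 20, 16 stayed called in each fit that left out 1 mouse. Without the livers low in Zhx2 16 stayed called, the losses being Sesn2 (adjusted p = 0.144), Ephx1 (0.104), Apaf1 (0.0871) and Psrc1 (0.075). The log2 changes of these genes there were 0.83, 0.85, 0.76 and 3.89, against 1.04, 0.81, 0.62 and 3.94 over all mice. Within mouse tags of 4300 or above, with 2 mice a group, 10 of the 20 were called, and within tags under 4300 16 were.

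**Figure D2:**
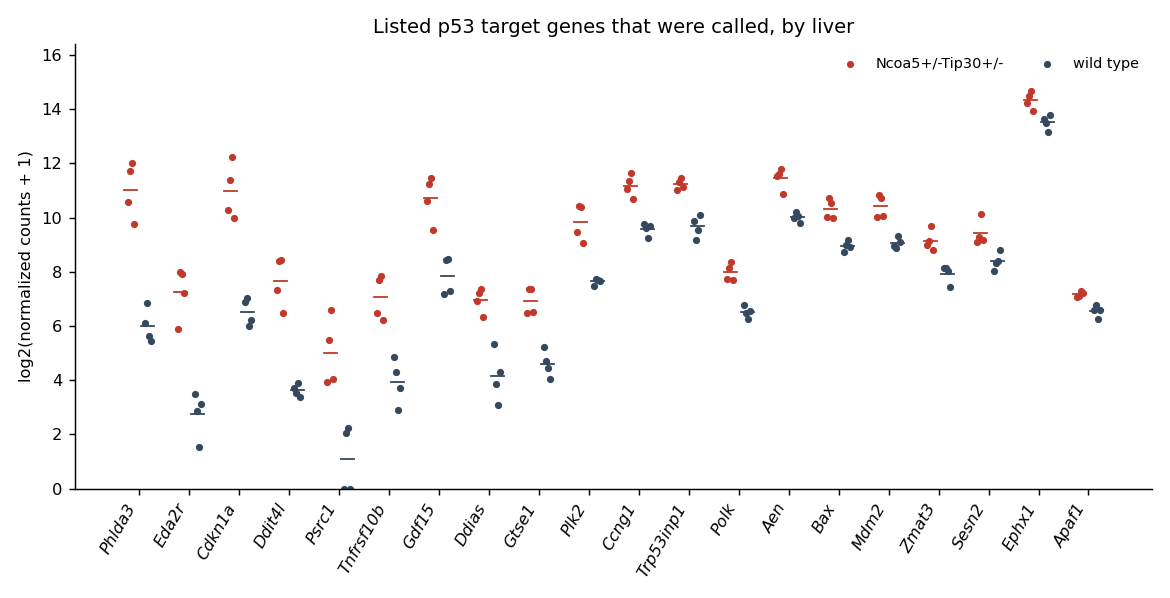
The 20 called p53 targets by liver, in order of their log2 change. The vertical axis is log2(normalized counts + 1), each point is 1 liver, red for Ncoa5+/-Tip30+/- and dark blue for wild type, and the bars are means of the log2 values of 4 mice. In each of the 20 genes all 4 double heterozygotes lie above all 4 wild-type livers, from a log2 change of 5.01 (Phlda3) to 0.62 (Apaf1). The groups were also apart in 387 of all 412 called genes.

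Outside the p53 lists the largest rises with at least 50 normalized counts, predicted genes and pseudogenes left out, were of varied function. Gria3, an AMPA-type glutamate receptor subunit (ENSMUSG00000001986, X chromosome), had 345, 623, 836 and 247 normalized counts in double heterozygotes, against 24.6, 24.2, 9.36 and 8.60 in wild type. It rose 28.9-fold (log2 4.85 ± 0.41, adjusted p = 2.2e-05) with the same order of mice as the p53 targets, livers 2 and 3 highest. Sult2a7, a sulfotransferase gene, rose 67.6-fold (adjusted p = 0.027), with 554 to 2597 in double heterozygotes and 10.2, 4.21, 34.6 and 58.5 in wild type. In Ncoa5+/- livers 1 to 4 it had 46.2, 1054, 882 and 12.7, so livers low in Zhx2 were the lower ones in both groups. Without the livers low in Zhx2 Sult2a7 was at log2 4.78 (adjusted p = 0.00227). It belongs to a family of near-identical copies, so the share of its reads is uncertain, and the call was lost in 4 of 8 fits without 1 mouse (adjusted p up to 0.0947). Lif, a cytokine of the interleukin-6 family, had 25.0, 112, 130 and 14.4 in double heterozygotes, against 1.02, 7.36, 0.936 and 0.860 in wild type, and rose 17.7-fold (adjusted p = 0.00553). Its wild-type level rests mostly on liver 2. Fam212b, an inhibitor of the kinase Pak4, rose 16-fold (adjusted p = 0.000247). Sec14l5, of a family of lipid-binding proteins, rose 8.54-fold (log2 3.09, adjusted p = 0.0184, called in 4 of 8 fits without 1 mouse). Without the livers low in Zhx2 Sec14l5 was at log2 3.51 (adjusted p = 0.0502). The miRNA gene rows Mir692-1 (16.9-fold) and Mir6392 (7.13-fold, called in 3 of 8 such fits) rose as well. Mir692-1 had 244 to 282 normalized counts in double heterozygotes, 319, 208, 203 and 16.4 in Tip30+/- and 8.41 to 20.5 in wild type, so Tip30+/- liver 4 lay in the wild-type range, and its call was lost without the livers low in Zhx2 (adjusted p = 0.0981). Reads of these rows need not be miRNAs: the libraries were of polyadenylated RNA, and Mir6392 lies inside Pnpla3 on the same strand.

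Genes of antigen presentation and inflammation rose in part. Of 28 genes of interferon-gamma GTPases and antigen presentation 5 rose and none fell (median log2 0.50), and of 22 NF-kB targets and chemokines 4 rose and none fell (0.22), against 1.40% of all genes that rose. Without the livers low in Zhx2 3 members of each list were called up, and over all settings 0 to 11 and 0 to 5 were. Relb, an NF-kB subunit, had 85.7, 120, 113 and 103 normalized counts in double heterozygotes, against 46.0, 67.3, 43.1 and 46.4 in wild type. It rose 2.08-fold (adjusted p = 0.00557), with no overlap. The class I gene H2-Q7 rose 2.11-fold, its transactivator Nlrc5 1.54-fold, the peptide transporter gene Tap1 1.51-fold and the class II gene H2-Aa 2.35-fold; H2-Q7 has close copies in the same locus, so its reads are uncertain. The chemokine gene Cxcl9 rose 2.13-fold (adjusted p = 0.047) and the adhesion gene Icam1 1.5-fold (0.0263). The others were the class II gene H2-Eb1 (log2 1.31) and Lif. Relb and H2-Q7 passed in each fit without 1 mouse, whereas Nlrc5, Tap1, H2-Aa, H2-Eb1, Cxcl9 and Icam1 each passed in 2 to 6 of the 8. Without the livers low in Zhx2 the calls of Nlrc5 (adjusted p = 0.0802), Tap1 (0.0933), H2-Aa (0.0564), H2-Eb1 (0.0981) and Icam1 (0.0981) were lost. The log2 changes of Nlrc5, Tap1, H2-Aa and Icam1 were no smaller there, at 0.72, 0.68, 1.55 and 0.63. Over all mice they were 0.63, 0.60, 1.23 and 0.58. Of 30 type I interferon response genes none was called (median 0.34).

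Markers of other liver cell types are given beside these genes. Cd8a, the T cell coreceptor, had 40.5, 83.7, 44.2 and 29.9 normalized counts in double heterozygotes, against 6.14, 10.5, 7.49 and 0.860 in wild type, a 7.84-fold rise (log2 2.97 ± 0.53, adjusted p = 0.00645). It was the single call among 17 tested lymphocyte markers, whose median log2 change was 0.90. The summed level of all 21 on that list was 633 to 1295 in double heterozygotes and 828 to 1072 in wild type. Of 18 tested Kupffer cell and macrophage markers none was called (median 0.35). The summed level of all 19 on that list was 12800 to 22980 in double heterozygotes and 7728 to 17070 in wild type. Spp1, the osteopontin gene on the cholangiocyte list, had 832, 1708, 1542 and 1072 in double heterozygotes, against 444, 686, 577 and 479 in wild type (2.30-fold, adjusted p = 0.0138, and 0.0819 without the livers low in Zhx2); it was the single call of 12 on that list. No member of the sinusoidal endothelial (17), stellate cell and matrix (17) or neutrophil (4) lists was called. The part of these cell types in the rises was not tested. In pieces of whole liver, more cells of a type and more RNA per cell cannot be told apart.

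Among the 14 largest falls were the P450 genes Cyp4a14, Cyp8b1, Cyp7b1 and Cyp39a1. Cyp4a14, a fatty acid omega-hydroxylase (ENSMUSG00000028715, chromosome 4, 115486200 to 115496142), had 2441, 2675, 1446 and 3766 normalized counts in double heterozygotes, against 7359, 16260, 8485 and 14840 in wild type. The groups did not overlap and the level fell to 22.0% of wild type (log2 -2.18 ± 0.36, adjusted p = 0.00645), and to a like extent without the livers low in Zhx2 (log2 -2.20, adjusted p = 0.0127). Its relatives in the list of 28 fatty acid oxidation and PPAR-alpha genes did not go with it: Cyp4a10 was at log2 0.14 (adjusted p = 0.831) and Cyp4a31 at 0.00 (0.998), and Cyp4a14 was the one member called. The Cyp4a genes are close copies, so reads can be split among them.

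Of 23 genes of bile acid synthesis and transport 2 fell (8.7%, against 1.28% of all genes) and none rose, with a median log2 change of -0.23. The 12 hepatocyte markers had a median of -0.31. Cyp8b1, the sterol 12-alpha-hydroxylase that sets the share of cholic acid, had 785, 2810, 1136 and 4635 normalized counts in double heterozygotes, against 7933, 7324, 6268 and 8538 in wild type (24.7% of wild type, log2 -2.02 ± 0.43, adjusted p = 0.029). Double heterozygotes 1 and 3 were lowest, and all 4 lay below wild type. Cyp7b1, the oxysterol 7-alpha-hydroxylase of the alternative pathway, had 305, 485, 464 and 551 in double heterozygotes, against 2241, 1182, 1083 and 1684 in wild type. It fell to 29.8% of wild type (log2 -1.75 ± 0.30, adjusted p = 0.00706), with no overlap. Cyp39a1, which hydroxylates 24-hydroxycholesterol and was not on the list, fell to 32.5% (adjusted p = 0.0396), with 106 to 202 in double heterozygotes and 234 to 744 in wild type. Cyp7a1, the rate-limiting enzyme of the classical pathway, was not called (log2 -0.52, adjusted p = 0.564), nor were Cyp27a1 (-0.29, 0.302), the bile salt exporter gene Abcb11 (-0.38, 0.188) or the uptake transporter gene Slc10a1 (-0.35, 0.135). Cyp7b1 stayed called in all 8 fits without 1 mouse, Cyp8b1 in 3 and Cyp39a1 in 2. Without the livers low in Zhx2 none of the 3 was called (adjusted p = 0.152 for Cyp8b1, 0.0804 for Cyp7b1 and 0.0958 for Cyp39a1), with log2 changes of -1.99, -1.61 and -1.16.

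Of 24 genes of cholesterol synthesis and SREBP2 targets 2 fell (8.3%, against 1.28% of all genes) and none rose, with a median log2 change of -0.40. Srebf2, the gene of SREBP2, had 2676, 2129, 2527 and 2389 normalized counts in double heterozygotes, against 3697, 3345, 3595 and 3513 in wild type. It fell to 68.5% of wild type without overlap (log2 -0.55, adjusted p = 0.0189). Its call was lost without the livers low in Zhx2 (adjusted p = 0.0883), at an unchanged log2 of -0.55. Sqle (log2 -0.47, adjusted p = 0.514) and Msmo1 (-0.59, 0.112), enzymes of the pathway, were not called. Among regulators, Rxra, the common partner of liver nuclear receptors, had 12380, 9671, 12660 and 12790 normalized counts in double heterozygotes, against 16630, 16800, 16260 and 16840 in wild type. The spread within wild type was small and Rxra fell to 70.9% (log2 -0.50 ± 0.10, adjusted p = 0.0148). It was the single call of 25 nuclear receptors, and Med1, a Mediator subunit that contacts them, the single call of 18 coregulators (77.4%, adjusted p = 0.0394). Without the livers low in Zhx2 their adjusted p was 0.0972 and 0.266.

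**Figure D3:**
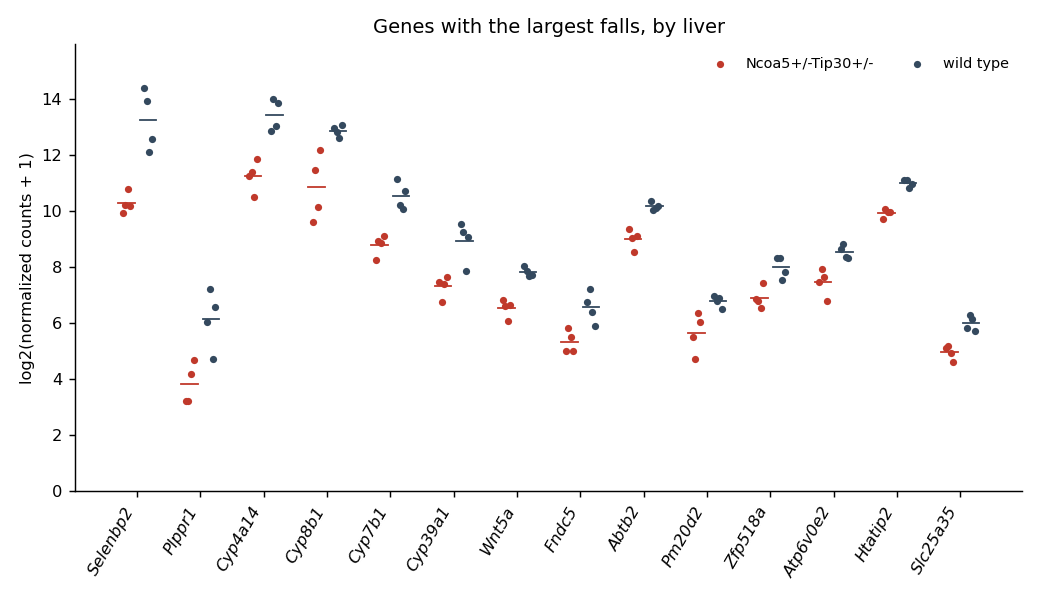
The 14 genes with the largest falls among named genes, by liver, from Selenbp2 (log2 -2.96) to Slc25a35 (-1.03). The vertical axis is log2(normalized counts + 1), each point is 1 liver, red for Ncoa5+/-Tip30+/- and dark blue for wild type, and the bars are means of the log2 values of 4 mice. The groups of every gene shown are apart, which the choice of these genes required.

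Other falls touched signalling and transport. Wnt5a, a Wnt ligand (ENSMUSG00000021994, chromosome 14), had 113, 97.8, 65.9 and 99.0 normalized counts in double heterozygotes, against 264, 234, 206 and 212 in wild type. It fell to 40.7% (log2 -1.30 ± 0.16, adjusted p = 0.000311) and stayed called without the livers low in Zhx2 (0.0232) and in all 8 fits without 1 mouse. Abtb2, an ankyrin repeat and BTB domain protein, had 657, 528, 372 and 554 in double heterozygotes, against 1317, 1053, 1106 and 1161 in wild type, and fell to 44.8% (adjusted p = 0.00178, and 0.015 without those livers). Of the 14 largest falls, Htatip2 included, 6 stayed called in all 8 fits without 1 mouse and 4 without the livers low in Zhx2: Cyp4a14, Wnt5a, Abtb2 and Htatip2. Selenbp2, a selenium-binding protein, had 985, 1196, 1772 and 1173 in double heterozygotes, against 21720, 15810, 4398 and 6029 in wild type. Its wild-type pair low in Zhx2 was highest, and the fall to 12.8% (adjusted p = 0.0189) was not called without those livers (log2 -2.04, adjusted p = 0.122). Plppr1, Fndc5, Pm20d2, Zfp518a, Atp6v0e2 and Slc25a35 fell to between 20.3% and 48.8% of wild type, and none of them was called without those livers (adjusted p = 0.104 to 0.199). Of 20 pericentral genes 2 fell (10%, against 1.28% of all genes): Glul, the glutamine synthetase of the cells around the central vein (65.5% of wild type, adjusted p = 0.0439), and Ahr, the aryl hydrocarbon receptor (70.1%, 0.0383). Glul passed in 2 and Ahr in 3 of the 8 fits without 1 mouse, and without the livers low in Zhx2 neither was called (0.0819 and 0.177). No member of the periportal list of 18 was called.

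Nfe2l2, Itih3 and Slc11a2 were each the one called member of a list. Nfe2l2, which encodes the oxidative stress factor NRF2, had 1996, 2688, 2472 and 2047 normalized counts in double heterozygotes, against 1340, 1265, 1283 and 1229 in wild type. It rose 1.78-fold (log2 0.84 ± 0.11, adjusted p = 0.000455), while no other gene of the NRF2 target list of 21 was called. Itih3, a serum inhibitor subunit, fell to 61.5% (adjusted p = 0.0468) and the iron transporter gene Slc11a2 to 73.3% (0.0468). Without the livers low in Zhx2 both calls were lost (0.199 and 0.267), and that of Nfe2l2 was kept (0.0154). The lists with no called member numbered 20 of 40, among them cell cycle and proliferation (27 tested, median log2 0.26), liver tumour and fetal markers (12, 0.33), fatty acid and triglyceride synthesis (27, 0.21), the core clock (18, 0.05), heat shock (15, -0.36) and mitochondrially encoded genes (15, -0.28). Ly6d, a tumour and fetal marker, had 21.4, 480, 329 and 123 normalized counts in double heterozygotes, against 27.6, 30.5, 20.6 and 17.2 in wild type, and did not pass (adjusted p = 0.133). Double heterozygote 1 lay within the wild-type range there.

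Hcn3, the ion channel gene in the title of the series, had 1275, 1754, 2135 and 1990 normalized counts in double heterozygotes, against 440, 262, 271 and 423 in wild type. It differed in its order of mice from the p53 targets, with liver 1 lowest but liver 4 second highest, and rose without overlap (log2 2.37 ± 0.23, adjusted p = 7.5e-05, and 0.0108 at most over all settings). The rise was not particular to the double heterozygote. Hcn3 averaged 795 ± 268 normalized counts in Ncoa5+/- and 1137 ± 73.8 in Tip30+/- (SD, n = 4 each). Both lay above wild type, by log2 1.16 (adjusted p = 0.0319) and 1.74 (0.00985). The double heterozygote was not called against Ncoa5+/- (log2 1.21, adjusted p = 0.179) or Tip30+/- (0.63, 0.123). Pklr, the liver pyruvate kinase gene, overlaps the end of Hcn3 on the other strand, and no strand marking is stated, so reads there could come from either. Pklr had 9434, 7978, 10270 and 11280 in double heterozygotes, against 8862, 6390, 5087 and 6150 in wild type. The groups overlapped through wild-type liver 1 (log2 0.57 ± 0.20, adjusted p = 0.11, 2-sided exact permutation p = 0.0571), and without the livers low in Zhx2 Pklr was called (log2 0.79, adjusted p = 0.0425).

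Set against the single heterozygotes, the double heterozygote differed from Ncoa5+/- in 3 genes (0.0195% of those tested, 2 or 0.0130% up and 1 or 0.00650% down, with 1399 genes or 9.10% at an unadjusted p below 0.05) and from Tip30+/- in 474 (3.08%, of which 250 or 1.63% up and 224 or 1.46% down). The 3 genes were Htatip2, which was lower, and the pseudogenes Gm6394, which in Tip30+/- liver 4 was at 10.2 normalized counts like wild type, and Gm11478, which were higher; without the livers low in Zhx2 1 gene was called. For the 215 genes that rose in the double heterozygote the median log2 change from wild type was 1.23 in Ncoa5+/-Tip30+/-, 0.93 in Ncoa5+/- and 0.16 in Tip30+/-. For the 197 that fell it was -0.57, -0.28 and -0.17 in the same groups. These 3 comparisons share the wild-type mice, and the 412 genes were chosen on the first of them. Of the 215, 121 differed from Tip30+/- and 2 from Ncoa5+/-, and of the 197, 51 and 1 did. These counts, and those of the p53 targets below, use the same double heterozygous mice on which the 412 genes were chosen. They are a description and not a separate test.

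All 20 called p53 targets differed from Tip30+/-, and none was called against Ncoa5+/-. Cdkn1a averaged 2449 ± 1787 normalized counts in Ncoa5+/-Tip30+/-, 2211 ± 848 in Ncoa5+/-, 59.5 ± 11.7 in Tip30+/- and 95.7 ± 32.9 in wild type (SD, n = 4 each). The difference of the double heterozygote from Ncoa5+/- was log2 -0.07, with a 95% confidence interval of -1.0 to 0.87 (adjusted p = 0.974). For Mdm2 the difference was 0.19 (-0.20 to 0.58) and for Phlda3 -0.09 (-1.09 to 0.91). Of the falls, Cyp4a14 averaged 2582 ± 952 in Ncoa5+/-Tip30+/-, 7363 ± 3421 in Ncoa5+/-, 5724 ± 998 in Tip30+/- and 11740 ± 4467 in wild type. Wnt5a averaged 94.0 ± 19.98, 146 ± 18.2, 128 ± 8.17 and 229 ± 26.1 in these 4 groups in the same order. Neither differed from a single heterozygote over all genes: the double heterozygote lay below Ncoa5+/- by log2 -1.47 in Cyp4a14 (95% confidence interval -2.24 to -0.70, adjusted p = 0.43) and by -0.65 in Wnt5a (-0.99 to -0.30, adjusted p = 0.39), and below Tip30+/- with adjusted p = 0.0756 and 0.107. A departure from the sum of both single effects on the log2 scale was called in 0 genes by limma (smallest adjusted p = 0.936, 698 genes or 4.54% at an unadjusted p below 0.05), in 0 by edgeR and in 1 by DESeq2.

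The major urinary proteins, pheromone carriers known to depend on Zhx2, differed widely within wild type. Of 17 tested genes none was called, and the median log2 change was 0.69. Mup1 had 335, 61.2, 261 and 66.0 normalized counts in double heterozygotes, against 6.14, 7.36, 820 and 2481 in wild type. Wild-type livers 1 and 2 lay below every double heterozygote in 15 of the 17 genes, while wild-type livers 3 and 4 lay above double heterozygotes 3 and 4 in 14. The median log2 change was thus 4.07 within mouse tags under 4300 and -2.95 within tags of 4300 or above, and 14 genes had a positive change in the lower range and a negative one in the upper. Without the livers low in Zhx2 the median was -3.05 and again no member was called. Among Ncoa5+/- livers 1 to 4, of which 1 and 4 are low in Zhx2, Mup1 had 34.9, 408, 102 and 6.82, but Mup10 had 94.6, 1014, 58.3 and 2.92, so liver 1 was not always below liver 3. Mup3, Mup20 and Mup21 did not follow the Zhx2 level in wild type. Mup21 had 49.1, 26.3, 46.8 and 54.2 in wild type and 67.6 to 83.4 in double heterozygotes, and is 1 of the 15 genes above. The order was not that of Zhx2 in the other wild-type livers either. Mup10 had 267 in liver 3, with 438 of Zhx2, and 6532 in liver 4, with 204 of Zhx2. These genes are near-identical copies, so the reads of single members are uncertain.

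**Figure D4:**
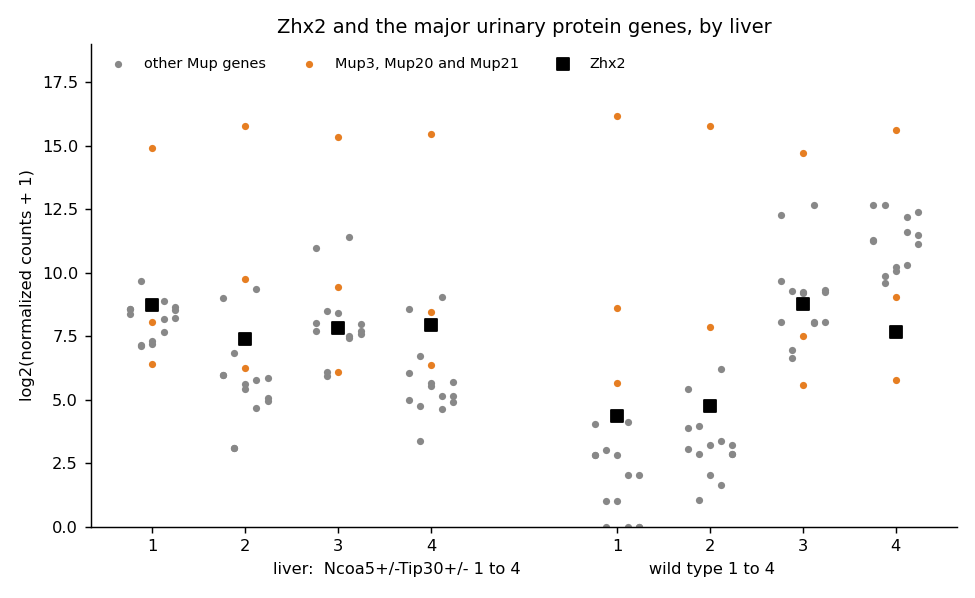
Zhx2 (black squares) and 17 major urinary protein genes by liver. The vertical axis is log2(normalized counts + 1), the horizontal axis lists Ncoa5+/-Tip30+/- livers 1 to 4 and then wild-type livers 1 to 4, and each point is 1 gene in 1 liver. In wild-type livers 1 and 2 Zhx2 and 14 of the genes (grey) are low, while Mup3, Mup20 and Mup21 (orange) are near their level in the other livers.

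Calls were also counted by distance from the targeted genes. Within 10 Mb of Htatip2 3 of 144 tested genes rose and 1 fell (2.78%, against 2.68% of all genes), and Bax is among these. Within 10 Mb of Ncoa5 2 of 177 rose and 5 fell (3.95%). By chromosome the share called ran up to 4.56% on chromosome 17, where 24 of 723 genes rose and 9 fell.

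The number of calls depended on which mice were in the fit more than on the scaling of the values, as the plot of genes called under each setting shows. In all, 89 genes were called without double heterozygote 2, 197 without 3 and 657 without 4, and 111, 221, 861 and 167 without wild-type livers 1, 2, 3 and 4. Over the fits without 1 mouse 66 to 444 genes rose and 23 to 417 fell, and 64 rises and 18 falls were called in all 8 such fits. Cdkn1a, Phlda3, Eda2r, Mdm2, Bax, Gria3, Hcn3, Htatip2, Wnt5a and Abtb2 were called in each of the 8.

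**Figure D5:**
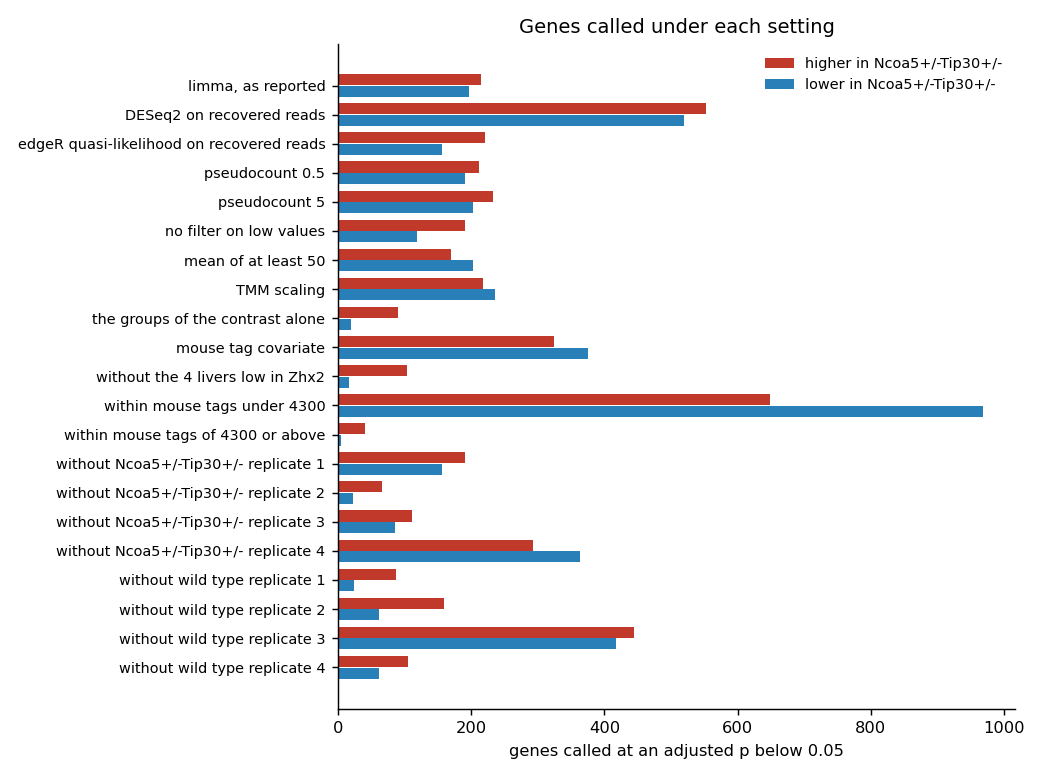
Genes called at an adjusted p below 0.05 under each setting, with red bars for genes higher in Ncoa5+/-Tip30+/- and blue bars for genes lower. The horizontal axis counts genes. Counts run from 41 rises and 5 falls within mouse tags of 4300 or above, with 2 mice a group, to 648 and 969 within tags under 4300, where both wild-type livers are low in Zhx2.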

How the data were processed

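Liver RNA of 16 mice was sequenced with 1 library per mouse. The deposited table holds signal values: read counts per gene that the authors divided by a size factor per library. Per the submitters' processing notes they used Trimmomatic 0.36, STAR 2.6.0c and DESeq2 1.28.1 with build GRCm38. The strain, the counting program and the annotation release are not given in these sources. Strand marking is not stated either, which leaves overlapping genes and near-identical copies uncertain. In every library 100% of values were whole multiples of the value of 1 read, to a tolerance of 1e-04, and reads were recovered from these steps for the depths and the count tests. Of 30199 genes, 18821 carry a symbol in the table, a reference gene table named 11328 and 50 have an identifier alone. Positions are from GENCODE and promoters from RefSeq. No 2 libraries agreed within sampling noise (lowest chi-square per gene 20.7).

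The test was limma 3.58.1 (trend and robust, R 4.3.3) on log2(value + 1), as 4 group means over 16 libraries, which share 1 estimate of the spread, 2-sided. P-values were adjusted by Benjamini-Hochberg over all 15373 genes within each comparison, and a gene was called below 0.05; adjusted p-values are from this fit unless another tool is named. Folds are powers of 2 of the fitted change. For 4 genes an exact permutation test over 70 arrangements of 8 mice was added. On the recovered reads edgeR 4.0.16 called 220 genes up and 156 down, and DESeq2 1.42.0 called 552 and 520. The procedure was tested on simulated data. Other alternatives covered pseudocounts of 0.5 and 5, no filter and a mean of at least 50, TMM scaling, the groups of a contrast alone, mouse tags divided at 4300, the livers low in Zhx2 left out, and each mouse left out.

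Named genes follow a rule: the 14 largest rises and the 14 largest falls among called genes that average at least 50 in the higher group, have groups that do not overlap and are neither predicted genes nor pseudogenes; up to 4 called members of each of 40 lists by smallest p, or the first 2 as values where none was called; and Htatip2, Ncoa5, Hcn3, Pklr and Zhx2. Further list members, and genes outside the rule, were chosen after their values were seen. The comparison, lists and rule were chosen with earlier results of these data known, so lists are described by counts and medians without a set test. Some list members are not reported here.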

Additional observations from a re-analysis of the deposited data

Results flagged for a closer look

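Among 200 groups of 4 mice, for 100 named genes in the double heterozygotes and in wild type, 6 held 1 mouse far from the other 3 by Dixon's criterion, and chance gives about 1 in 20. Double heterozygote 2 stood apart in 3 of them. It had 9671 normalized counts of Rxra, against 12380 to 12790 in the other double heterozygotes. It had 10660 of Tdo2, the tryptophan dioxygenase of hepatocytes, against 14790 to 15150. It had 462.9 of Col1a1, a fibrillar collagen, against 354.8 to 367.5. Double heterozygote 3 had 1130 of Sesn2, against 550.2 to 631.3. Wild-type liver 2 had 7.361 of Lif, against 0.8601 to 1.023 in the other wild-type livers, and 67.3 of Relb, against 43.06 to 46.44.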

How the results depend on the processing

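No paired analysis was possible because the labels give mouse tags and no replicate numbers that groups share. The count against wild type of 412 genes (215 up, 197 down) was 1072 (552, 520) by DESeq2, 109 (90, 19) when the groups were fitted alone, 701 (325, 376) with the mouse tag as covariate, 120 (103, 17) without the 4 livers low in Zhx2, 1617 (648, 969) within mouse tags under 4300 and 46 (41, 5) within tags of 4300 or above. Without a filter 119 fell. Leaving out 1 mouse gave 89 to 861 genes, 66 to 444 up and 23 to 417 down; the lowest was without double heterozygote 2 and the highest without wild-type liver 3. Scaling by TMM gave 217 up and 236 down and moved the median of all genes by -0.0104.

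Against Ncoa5+/- the 3 genes were 32 by DESeq2, 9 in the groups alone, 1 without the livers low in Zhx2 and 1 to 2 without 1 mouse. Against Tip30+/- the 474 were 1178 by DESeq2, 1371 with the tag covariate and 105 to 763 without 1 mouse. For the departure from the sum of both effects DESeq2 called 1. Htatip2 was at log2 -0.95 (adjusted p = 0.0563) within tags of 4300 or above, and Pklr at 0.79 (0.0425) without the livers low in Zhx2. No named gene reversed its direction with a call under the settings run. The cause of these moves was not tested. With 2 mice a group, fits within tags limit what can be called, and low counts limit the fold of genes such as Psrc1 and Lif.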

Other observations

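Some values fall outside the rule for named genes and were chosen after they were seen. Ferritin light chain pseudogenes followed the Tip30 label in all but 1 liver. Ftl2-ps had 37430, 42280, 34360 and 33580 normalized counts in Ncoa5+/-Tip30+/- livers, 4379, 3245, 3229 and 3217 in Ncoa5+/-, 35930, 32090, 39300 and 3109 in Tip30+/- and 3593, 3161, 2843 and 3131 in wild type. Tip30+/- liver 4 was thus at the level of wild type, and its Htatip2 level of 741 lay within the 685 to 986 of the other Tip30+/- livers. Ftl1-ps2 had the same layout, with 1455 to 1793 in double heterozygotes and 84.3 to 138 in wild type, and 134 in Tip30+/- liver 4 against 1208 to 1844 in the other 3. The layout was also that of Mir692-1 and of the pseudogene Gm6394, which had 120 to 198 in double heterozygotes, 172, 153, 177 and 10.2 in Tip30+/- and 7.49 to 13.3 in wild type. The parent gene Ftl1 on chromosome 7 (45457944 to 45459884, the chromosome of Htatip2) had 22770 to 34610 in double heterozygotes and 25100 to 30300 in wild type (log2 0.00, adjusted p = 0.997 by limma). Reads of such copies cannot be assigned with certainty, and the source of the layout was not tested.

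Trp53cor1, a long non-coding RNA next to Cdkn1a that is known as a p53 target, had 40.5, 29.2, 28.6 and 23.7 normalized counts in double heterozygotes, against 4.09, 3.16, 0 and 1.72 in wild type (log2 3.49 ± 0.66, adjusted p = 0.011 by limma). Double heterozygote 1 was highest in Trp53cor1, unlike in the called p53 targets on the lists. The predicted gene Gm10800 had 94.1, 1043, 1175 and 164 in double heterozygotes, against 6.14, 3.16, 34.6 and 10.3 in wild type (adjusted p = 0.0315 by limma, and 0.228 without the livers low in Zhx2). Livers 2 and 3 were highest in Gm10800, as in the called p53 targets on the lists.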
